A study of Mus musculus with 2 samples.

Results

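The miR-200 family and the epithelial miRNAs miR-203 and miR-205 were examined in small RNA from the mouse midbrain at embryonic day 14.5. The 7 loci were chosen by gene symbol, through the gene identifiers of the deposited count tables. They make up 7 of the 1973 miRNA loci listed there, of which 746 had any read on the annotated strand in either library. The loci are Mir200b, Mir200a and Mir429 on chromosome 4, Mir200c and Mir141 on chromosome 6, Mir203 on chromosome 12 and Mir205 on chromosome 1. The series has 1 group, midbrain tissue of B6NCrl embryos with no treatment named in the labels, and 2 biological replicates. The labels describe each replicate as the midbrain of a single pup, collected on different days, but also give the sex as pooled and give both replicates the same donor identifier. If the replicates are not separate animals, the SDs below do not measure variation between animals. There is no contrast between conditions, and bulk tissue cannot tell fewer cells of a type from less RNA per cell.

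The miR-200 family consists of miRNAs from a pair of gene clusters that are known for maintaining the epithelial state. In epithelia they repress the transcription factors Zeb1 and Zeb2, and these factors in turn repress the promoters of both clusters, a mutual inhibition that is a textbook switch between epithelial and mesenchymal cells. In the developing ventral midbrain and hindbrain, miR-200 has been described as acting on Sox2 and E2f3 when neural progenitors leave the cell cycle. miR-205, which also acts on Zeb factors, and miR-203, which limits p63 in skin, are best known from stratified epithelia.

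The mature sequences show why the family is usually divided by seed, the bases 2 to 8 that pair with a target. All 7 loci matched the RefSeq table (build GRCm38.p6), and the 3′ arms of the miR-200 loci, the arm usually taken as the functional product, are printed 5′ to 3′ with the seed in capitals, first the group that shares AAUACUG and then the group that shares AACACUG.
miR-200b-3p: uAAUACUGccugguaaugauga
miR-200c-3p: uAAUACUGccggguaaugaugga
miR-429-3p: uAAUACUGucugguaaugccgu
miR-200a-3p: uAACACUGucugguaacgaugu
miR-141-3p: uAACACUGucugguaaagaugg
Both seeds were confined to these loci in the table: AAUACUG to the 3 loci of the first group and AACACUG to the 2 loci of the second. Each cluster holds both seeds, since Mir200b and Mir429 of the chromosome 4 cluster lie beside Mir200a, and Mir200c of the chromosome 6 cluster lies beside Mir141. Counted from the 5′ end of the mature miRNA, miR-200b-3p and miR-200c-3p differ by U11G and A22G, and miR-200a-3p and miR-141-3p by C17A and U22G. Between the seed groups, miR-200b-3p and miR-200a-3p differ inside the seed by U4C, and further along by C9U, U17C and A22U.

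The arms of miR-203 and miR-205 that are best known for their targets are unrelated to these seeds, and no other locus in the table carried either of theirs.
miR-203-3p: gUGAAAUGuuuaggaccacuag
miR-205-5p: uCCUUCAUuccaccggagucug
The deposited counts are per locus, so that reads from the 5′ and the 3′ arm of a hairpin are added together and the values below belong to the locus. On the 5′ arm the seeds split in another way, with AUCUUAC shared by miR-200a-5p and miR-200b-5p and by no other miRNA in the table.

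Sequence shared with other loci matters here, because reads that map to several places were set apart by the authors' counting. No hairpin of the 7 shares an exact stretch of 20 nt with a miRNA hairpin elsewhere. The longest such stretches were 17 nt between Mir200a and Mir141 and 14 nt between Mir200b and Mir200c and between Mir205 and Mir6397. The mature miR-200a-3p and miR-141-3p have their first 16 nt in common, so that a read cut short to those bases could not be placed. How many reads were lost in that way was not tested.

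Replicate 1 gave 7302633 sense reads at miRNA loci, those on the annotated strand, and replicate 2 gave 3966727, with 36.2% and 36.9% of all reads in the class that maps to several places. Levels are given as CPM, sense reads scaled to 1000000 sense reads at miRNA loci, and 1 read was worth 0.137 CPM in replicate 1 and 0.252 CPM in replicate 2. A mature miRNA is read whole, so counts were not divided by length. Intervals cover counting error only, since copies made by PCR are not independent molecules. A list of miRNAs of neurons and neural progenitors was counted as a look at neural content. With no other tissue to compare, midbrain identity was not tested. In the list, 6 of 8 loci with a count had at least 10 reads in each library. Mir137 was the highest at 12716 ± 1726 CPM (SD, n = 2) and Mir124a-3 the lowest at 1.92 ± 0.577 CPM. Of the list, 7 loci share sequence with another miRNA locus, among them all Mir124a loci, so that their counts are uncertain.

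All 7 epithelial loci had at least 10 sense reads in each library, which held for 20.1% of all 1973 loci listed, with or without reads. They spanned more than 2 orders of magnitude, and Mir203 stood far above the rest. Together they took 0.0787% of the sense reads in replicate 1 and 0.0805% in replicate 2. The exact Clopper-Pearson 95% limits of these shares were 0.0767 and 0.0808 in the first and 0.0777 and 0.0833 in the second. Of these reads Mir203 alone held 92.3% and 91.3%. Their median level was 12.5 CPM, against 120 CPM over the 397 detected loci.

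Mir203, the skin miRNA that restrains p63, had 5308 reads in replicate 1 and 2915 in replicate 2. These counts equal 727 CPM (exact Poisson 95% interval 707 to 747) and 735 CPM (708 to 762), a mean of 731 ± 5.66 CPM (SD, n = 2). The libraries lay within each other's interval, and Mir203 ranked 102 among the 397 detected loci. Mir203 (ENSMUSG00000065574.1) occupies the plus strand of chromosome 12 from 112130880 to 112130955 on mm10, outside any other gene of GENCODE M21, with the protein-coding gene Aspg 3320 bp away.

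Mir205, the other miRNA of stratified epithelium, had 136 and 72 reads in replicates 1 and 2. Its level was 18.6 CPM (interval 15.6 to 22) and 18.2 CPM (14.2 to 22.9), with a mean of 18.4 ± 0.334 CPM (SD, n = 2). Mir203 exceeded Mir205 39.0-fold in replicate 1 (interval 32.9 to 46.6) and 40.5-fold in replicate 2 (32.0 to 51.9). The gap between these miRNAs was thus nearly equal in the libraries. Mir205 (ENSMUSG00000065533.1) occupies the minus strand of chromosome 1 from 193507463 to 193507530, in an exon of the noncoding gene 4631405K08Rik, a synonym of Mir205hg in RefSeq.

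**Figure D1:**
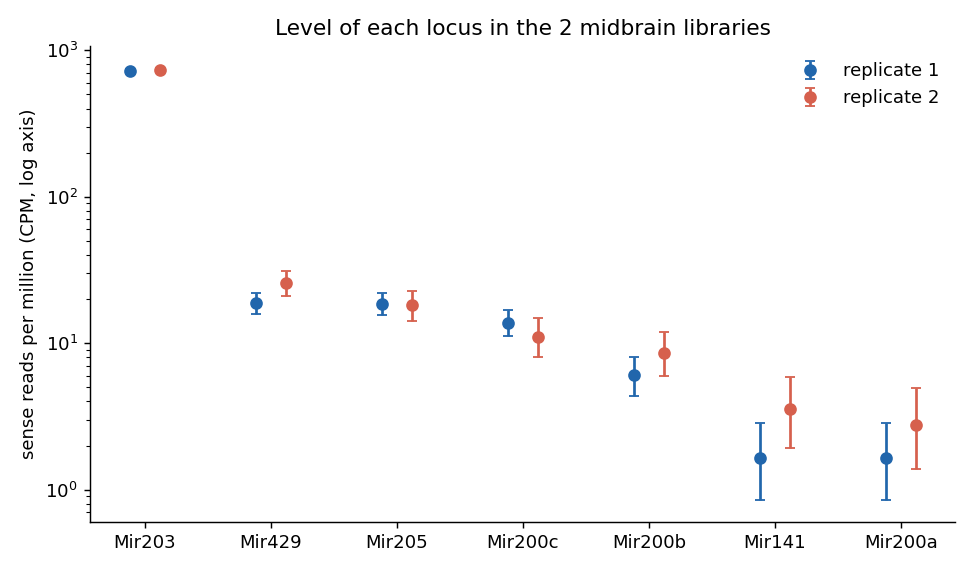
Level of each locus in CPM of sense reads (log axis) in replicate 1 (blue) and replicate 2 (red); bars are exact Poisson 95% intervals. Mir203 lies at 727 and 735 CPM, Mir429, Mir205 and Mir200c lie between 11.1 and 25.7 CPM, and Mir141 and Mir200a lie below 4 CPM in each library.

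The 5 loci of the miR-200 family added up to 306 reads in replicate 1 and 205 in replicate 2. In level this was 41.9 and 51.7 CPM for the whole family, a mean of 46.8 ± 6.91 CPM (SD, n = 2). Mir203 alone exceeded this sum 17.3-fold in replicate 1 (interval 15.5 to 19.5) and 14.2-fold in replicate 2 (12.3 to 16.5).

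In the chromosome 4 cluster the member transcribed last was the highest and the one in the middle the lowest. Mir429, with the seed AAUACUG, had 137 and 102 reads, or 18.8 CPM (interval 15.8 to 22.2) in replicate 1 and 25.7 CPM (21 to 31.2) in replicate 2. Mir200b, which has the same seed and comes first on the strand, had 44 and 34 reads, or 6.03 CPM (4.38 to 8.09) and 8.57 CPM (5.94 to 12). Mir200a, with the seed AACACUG, had 12 and 11 reads, or 1.64 CPM (0.849 to 2.87) and 2.77 CPM (1.38 to 4.96). The order of the 3 loci was the same in both libraries, and no interval of one locus met that of another within a library. Mir200a passed the minimum of 10 reads by a single read in replicate 2.

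The chromosome 6 cluster was lower as a whole and showed the same order of seeds. Mir200c, with the seed AAUACUG, had 101 and 44 reads, or 13.8 CPM (interval 11.3 to 16.8) in replicate 1 and 11.1 CPM (8.06 to 14.9) in replicate 2. Mir141, with the seed AACACUG, had 12 and 14 reads, or 1.64 CPM (0.849 to 2.87) and 3.53 CPM (1.93 to 5.92). Mir200c was the only miR-200 locus with a lower CPM in replicate 2 than in replicate 1.

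Both clusters are compact. On mm10 the hairpins lie on the minus strand of chromosome 4, Mir200b (ENSMUSG00000065549.2) from 156055681 to 156055750, Mir200a (ENSMUSG00000065400.1) from 156054896 to 156054985 and Mir429 (ENSMUSG00000065427.1) from 156053905 to 156053987. The gaps between these hairpins are 695 and 908 bp, and the 3 loci span 1846 bp inside an intron of the protein-coding gene Ttll10. They also lie in the noncoding gene Gm13648, Mir429 in an exon and the other two in an intron. On chromosome 6, also on the minus strand, Mir200c (ENSMUSG00000065462.2) runs from 124718322 to 124718390 and Mir141 (ENSMUSG00000065474.1) from 124717914 to 124717985. Their gap is 336 bp, and both lie in an intron of the noncoding gene Gm15884. Mir141 also lies in an exon of the transcript Gm29008, and the gene Phb2 lies on the opposite strand 963 bp from Mir141.

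**Figure D2:**
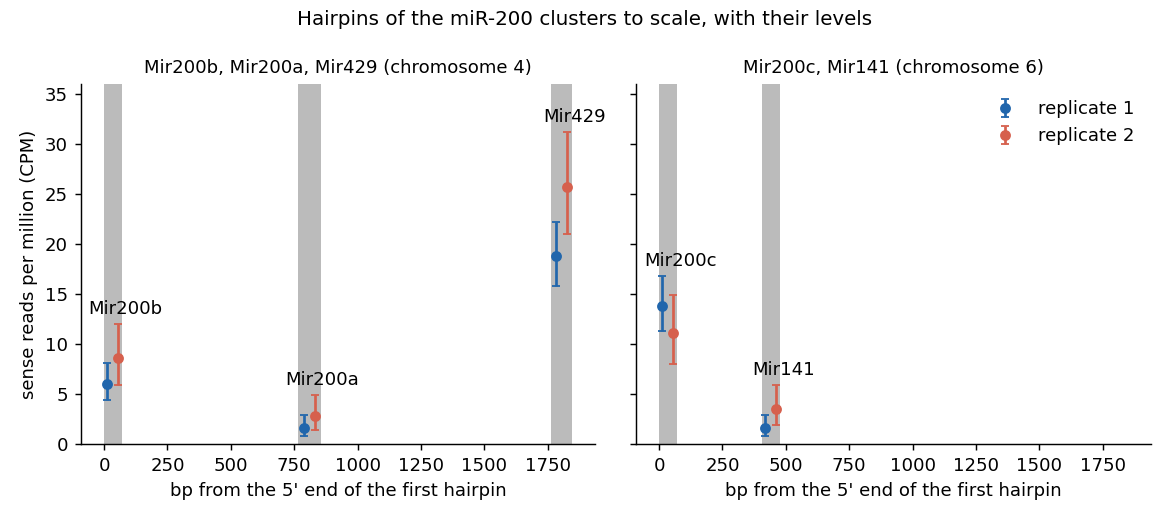
Hairpins of both miR-200 clusters (grey bands, to scale, in the direction of transcription) with the level of each locus in CPM in replicate 1 (blue) and replicate 2 (red); bars are exact Poisson 95% intervals. Mir429, 1846 bp from the start of Mir200b at its far end, is the highest at 18.8 and 25.7 CPM, and Mir200a and Mir141 are the lowest of their clusters.

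Summed over its loci, the chromosome 4 cluster was the higher in both libraries. It held 193 reads against 113 of the chromosome 6 cluster in replicate 1 and 147 against 58 in replicate 2. In level the chromosome 4 cluster stood at 26.4 and 37.1 CPM and the chromosome 6 cluster at 15.5 and 14.6 CPM. The ratio of the clusters was 1.71 in replicate 1 (interval 1.35 to 2.17) and 2.53 in replicate 2 (1.86 to 3.50), a mean of 2.12 ± 0.584 (SD, n = 2). Each interval lies above 1. The intervals of the libraries overlap, and whether the ratio differed between the libraries was not tested. As mean reads per locus, with 3 loci in the chromosome 4 cluster and 2 in the other, the ratio was 1.14 in replicate 1 (interval 0.898 to 1.45, which includes 1) and 1.69 in replicate 2 (1.24 to 2.33), a mean of 1.41. With the highest locus of each in place of the sum, Mir429 exceeded Mir200c 1.36-fold in replicate 1 (interval 1.04 to 1.77) and 2.32-fold in replicate 2 (1.61 to 3.38).

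Within the chromosome 4 cluster the ratios of the loci were alike in the libraries. Mir429 exceeded Mir200b 3.11-fold in replicate 1 (interval 2.20 to 4.48) and 3-fold in replicate 2 (2.02 to 4.56). Mir429 exceeded Mir200a 11.4-fold (6.33 to 22.6) and 9.27-fold (4.97 to 19.2). Mir200b exceeded Mir200a 3.67-fold (1.90 to 7.63) and 3.09-fold (1.53 to 6.76). None of these intervals reached 1. In the chromosome 6 cluster Mir200c exceeded Mir141 8.42-fold in replicate 1 (4.61 to 16.8) and 3.14-fold in replicate 2 (1.69 to 6.21). That ratio is the least settled, with overlapping intervals and 12 and 14 reads at Mir141.

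Such unequal levels were common among miRNA clusters of this tissue. The highest mean in the chromosome 4 cluster was 10.1 times the lowest, and in the chromosome 6 cluster 4.82 times. Detected loci with no more than 10 kb between them on a strand formed 44 clusters. Over these the median of this quotient was 13, and 23 and 29 clusters respectively had a larger one. The clusters were not matched for their number of loci, and more loci leave room for a larger quotient. By summed level both stood near the bottom: 3 of the 44 clusters had a lower sum of mean CPM than the chromosome 4 cluster and 1 had a lower sum than the chromosome 6 cluster.

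Arranged by seed, the loci of the AAUACUG group took most of the family's reads. Mir200b, Mir200c and Mir429 together had 282 reads in replicate 1 and 180 in replicate 2, whereas Mir200a and Mir141 had 24 and 25. The AAUACUG loci thus stood at 38.6 and 45.4 CPM and the AACACUG loci at 3.29 and 6.30 CPM. The ratio of the groups was 11.8 in replicate 1 (interval 7.74 to 18.6) and 7.20 in replicate 2 (4.72 to 11.4). Reads of miR-200a-3p or miR-141-3p cut to their shared first 16 nt could not be placed, and how far this lowered the AACACUG counts was not tested. This grouping of the loci was chosen after their values were seen. Across the clusters, loci with a like seed had smaller ratios in each library than neighbours with unlike seeds. Some of the intervals overlap, and the difference was not tested. Within the chromosome 4 cluster a like seed did not go with a like level, since Mir429 exceeded Mir200b 3.11-fold and 3-fold. Mir141 and Mir200a had 12 reads each in replicate 1 and 14 and 11 reads in replicate 2, a ratio of 1.00 (interval 0.411 to 2.43) and 1.27 (0.537 to 3.10). Mir429 exceeded Mir200c 1.36-fold (1.04 to 1.77) and 2.32-fold (1.61 to 3.38). Mir200c exceeded Mir200b 2.30-fold in replicate 1 (1.60 to 3.35) and 1.29-fold in replicate 2 (0.808 to 2.09), where the interval includes 1.

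**Figure D3:**
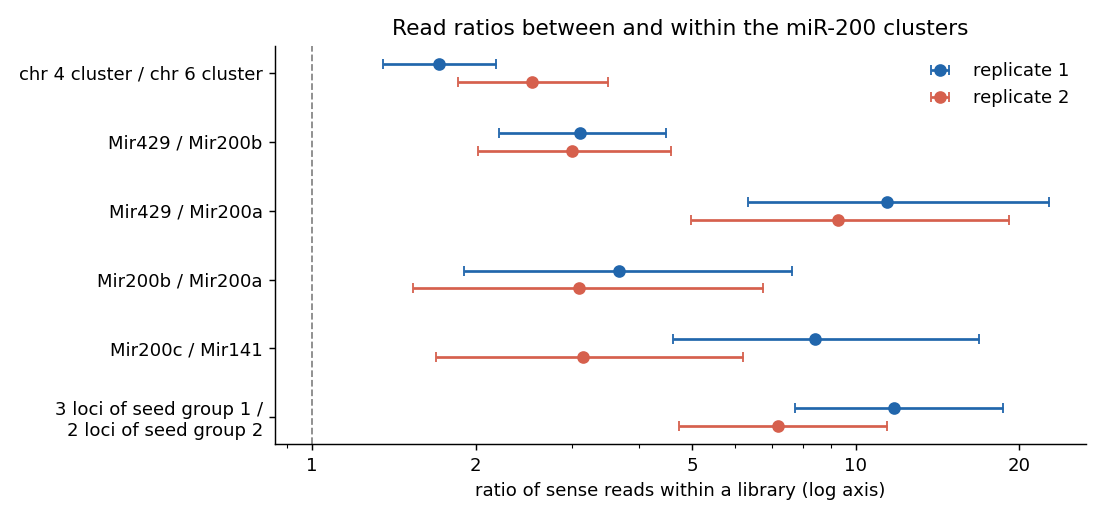
Ratios of sense reads within replicate 1 (blue) and replicate 2 (red) on a log axis, with intervals from exact Clopper-Pearson 95% limits; the dashed line marks a ratio of 1. Seed group 1 is Mir200b, Mir200c and Mir429 and seed group 2 is Mir200a and Mir141. Every interval shown lies above 1, from 1.35 at the lowest for the clusters to 22.6 at the highest for Mir429 over Mir200a.

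The order of the 7 loci by mean level was Mir203, Mir429, Mir205, Mir200c, Mir200b, Mir141 and Mir200a. The means of Mir429 and Mir205 differed by 3.85 CPM, less than the SD of Mir429, 4.92 CPM. In replicate 1 they had 137 and 136 reads, a ratio of 1.01 (interval 0.789 to 1.29). In replicate 2 they had 102 and 72 reads, a ratio of 1.42 (1.04 to 1.94), so that Mir429 was the higher in both libraries and beyond counting error in replicate 2. Mir141 and Mir200a were not resolved, with means 0.378 CPM apart and an SD of 1.33 CPM at Mir141. The other neighbours in the order differed by more than the larger of their SDs, a rough measure with 2 libraries. Apart from Mir141 and Mir200a, no neighbours overlapped between the libraries. For Mir200c over Mir200b, however, the ratio in replicate 2 was 1.29 (interval 0.808 to 2.09), which includes 1.

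After TMM scaling, Mir203 alone of these loci passed a test between the libraries, and it did not pass under every scaling. After TMM scaling 4 of the 7, Mir200b, Mir200a, Mir429 and Mir141, were higher in replicate 2. An exact two-sided binomial test on these totals, adjusted by Benjamini-Hochberg over the 397 detected loci, called 1 of the 7, against 53.9% of all detected loci. edgeR's exactTest with a dispersion of 0.01 called 0 of the 7, with 0 at an unadjusted p under 0.05, against 6.55%. The binomial test compares these 2 libraries, allows for counting error only, and can resolve little at Mir200a, Mir141 and Mir200b, with 11 to 44 reads each. The call was Mir203, at log2(replicate 2/replicate 1) -0.08 (interval -0.14 to -0.01, adjusted p = 0.0333 in the exact binomial test). It depends on scaling, since plain totals gave 0.02 and an adjusted p of 0.717 in the exact binomial test. Mir429 stood at 0.36 (-0.02 to 0.74, adjusted p = 0.105 in the exact binomial test) and passed with plain totals, at 0.45 and an adjusted p of 0.0332 in the exact binomial test. By size alone, 2 of the 7 lay beyond 1.5-fold, against 16.6% of detected loci. The median size of the log2 ratio was 0.41 over the 7 and 0.23 over all detected loci. Beyond 1.5-fold were Mir141 at 1.01 (-0.21 to 2.25) and Mir200a at 0.66 (-0.66 to 1.97), the loci with the fewest reads, and both intervals include 0. Mir200b at 0.41 (-0.28 to 1.09), Mir200c at -0.41 (-0.96 to 0.11) and Mir205 at -0.13 (-0.56 to 0.29) did not pass the test.

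**Figure D4:**
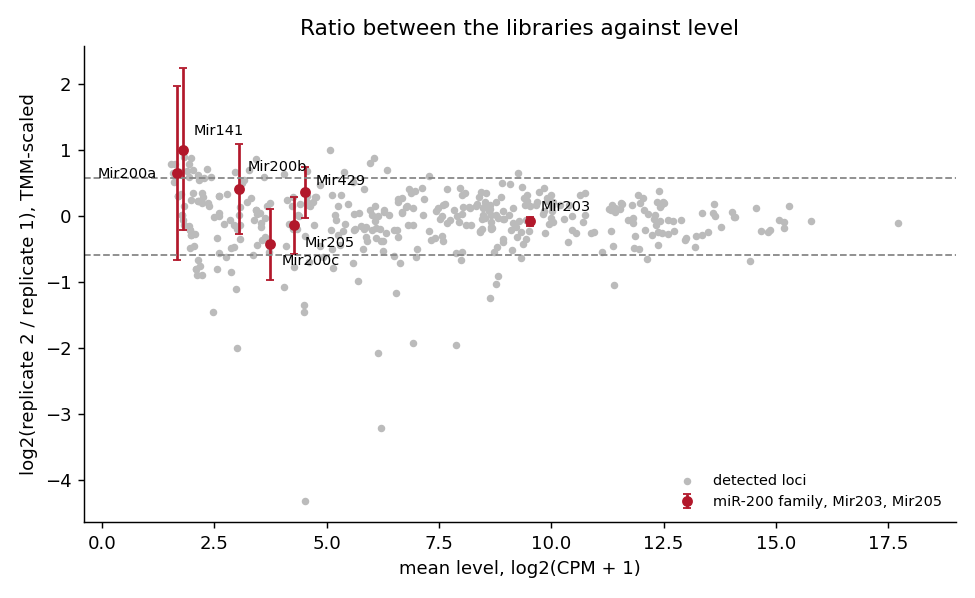
Log2 ratio of replicate 2 to replicate 1 after TMM scaling against mean level in log2(CPM + 1) for the 397 detected loci (grey), with the 7 epithelial loci in red and their exact 95% intervals; dashed lines mark 1.5-fold. Mir141 (1.01) and Mir200a (0.66) lie beyond the line with intervals that include 0, and Mir203 lies at -0.08.

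Lists of miRNAs from other epithelia gave the setting for these levels. In the sensory cluster, which is active in placode-derived sensory epithelia, 3 of 3 loci were detected, from Mir96 at 401 ± 1.75 CPM to Mir182 at 1399 ± 75.6 CPM (SD, n = 2). These lie on the scale of Mir203 and above every miR-200 locus. Of the digestive and endocrine list 6 of 8 loci were detected, with the islet miRNA Mir375 highest at 411 ± 16.9 CPM and Mir215 lowest at 0.710 ± 0.423 CPM, and a median of 113 CPM. Mir194-1 and Mir194-2 of that list share sequence with each other, and their counts are uncertain. The choroid plexus and multiciliated cell list had 5 of 7 loci detected and a median of 21.9 CPM, with Mir204 highest at 695 ± 83.5 CPM and Mir449c lowest at 0.937 ± 0.612 CPM.

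Taken as a list, other miRNAs reported to act on Zeb or Snai factors were far more abundant than the miR-200 family here. Of 12 loci 11 were detected, and the median of all 12 was 546 CPM. The list is not separate from the others, since Mir34b and Mir34c are also in the choroid plexus list and Mir192 and Mir215 in the digestive list. Mir30a, reported to act on Snai1, was the highest at 12093 CPM in replicate 1 and 10961 CPM in replicate 2. Mir153 followed at a mean of 5876 CPM. Not every locus was abundant: Mir34b had a mean of 21.9 CPM, beside 22.2 CPM for Mir429, and Mir215 was the lowest at 0.710 CPM. The list took 2.32% ± 0.0365 of the sense reads (SD, n = 2), against 0.00468% ± 0.000691 for the 5 miR-200 loci. Of its loci 4, Mir101a, Mir101b, Mir138-1 and Mir138-2, share sequence with another miRNA locus and may be undercounted.

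**Figure D5:**
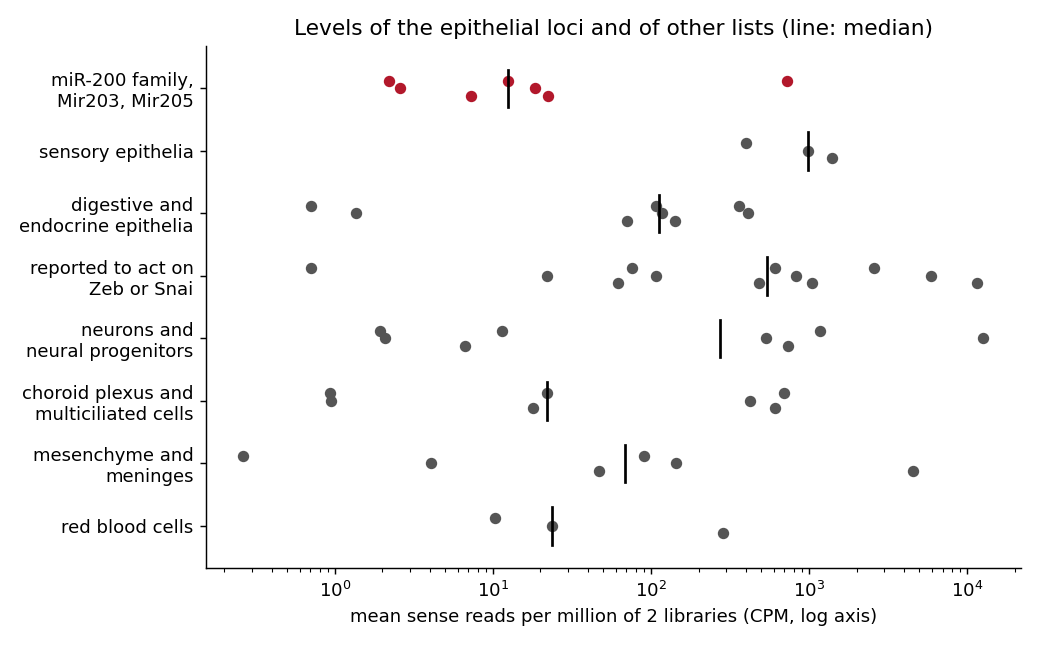
Mean level of each locus over the 2 libraries (CPM, log axis) for the miR-200 family with Mir203 and Mir205 (red) and for 7 other lists (grey); lines are medians. The median of the red loci is 12.5 CPM, below the medians of the lists shown, which run from 21.9 CPM for choroid plexus and multiciliated cells to 983 CPM for sensory epithelia.

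Marker miRNAs of other tissues were present, and their summed levels are given without a test. Summed over a list, mesenchyme and meninges stood at 5850 CPM in replicate 1 and 3838 CPM in replicate 2, with 4 of 6 loci detected, Mir143 highest at 4559 ± 1222 CPM and Mir199a-1 lowest at 0.263 ± 0.0154 CPM (SD, n = 2). Mir143 alone held 5423 and 3694 CPM of these sums, and Mir199a-1, Mir199a-2 and Mir199b share sequence with another miRNA locus, so that their counts are uncertain. Red blood cell loci stood at 486 and 153 CPM with 3 of 3 detected, from Mir486 at 10.3 ± 0.693 CPM to Mir451a at 285 ± 229 CPM. Mir451a carried most of that change, with 447 and 123 CPM. Mir144 was also lower in replicate 2, at 28.8 and 18.9 CPM, whereas Mir486 had 9.86 and 10.8 CPM. Choroid plexus and multiciliated cell loci stood at 2037 and 1503 CPM, and sensory loci at 2841 and 2726 CPM. In the choroid plexus list Mir449a had 587 and 265 CPM, and only Mir211 was higher in replicate 2, at 16.3 and 19.4 CPM. In the sensory list Mir182 had 1453 and 1346 CPM, and only Mir96 was higher in replicate 2, at 400 and 403 CPM. Lists with the larger sum in replicate 2 were neurons and neural progenitors, at 13774 and 16600 CPM, and digestive and endocrine epithelia, at 1158 and 1262 CPM. Mir137 alone held 11495 and 13936 CPM of the neural sums. Mir124a-1, Mir124a-3 and Mir9-2 were lower in replicate 2, and the other neural loci with a count were higher. Of the digestive and endocrine list only Mir375, its highest locus, was lower in replicate 2, at 422 and 399 CPM. The miR-200 family had 41.9 and 51.7 CPM. No locus of the 5 passed the exact binomial test on TMM totals, whereas Mir429 passed it on plain totals. The part of these tissues in the miR-200, Mir203 and Mir205 reads was not tested.

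The loci nearest in level to these miRNAs were found by the distance of log2(CPM + 1) over the 2 libraries, a measure that reflects abundance and little else with 2 samples. Nearest to Mir203 were Mir320, Mir363 and Mir128-2, at distances of 0.104, 0.106 and 0.165. Nearest to Mir205 were Mir466n, Mir3066 and Mir3064, at 0.0581, 0.104 and 0.151. Mir1930, Mir190b and Mir344f were nearest to Mir429, at 0.0603, 0.105 and 0.163, and Mir122, Mir3075 and Mir3057 to Mir200c, at 0.0968, 0.166 and 0.267. Within a distance of 0.5 lay 21 detected loci for Mir203, 16 for Mir205, 18 for Mir429 and 11 for Mir200c, so that many loci shared these levels.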

How the data were processed

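The authors deposited 1 table of raw counts per library, with reads per miRNA gene for both strands, the annotated strand and the opposite strand; per the text deposited with each library, these used assembly mm10 and annotation release M4. The sources used here do not name the aligner or counter. Reads not assigned to a gene were left out: unmapped 19.0% and 18.5%, multimapping 36.2% and 36.9%, and no feature 3.10% and 2.17% of all reads in replicates 1 and 2. How many multimapping reads came from miRNA loci was not tested. GENCODE M21, also on mm10, gave symbols and positions for 1894 of 1973 loci.

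Sense counts were scaled to CPM over all loci. A locus was detected with at least 10 sense reads in each replicate. Poisson and Clopper-Pearson intervals are exact, at 95% (scipy 1.17.1). The libraries were compared per locus with an exact binomial test on TMM totals (edgeR 4.0.16). The binomial test was also run, on plain totals, on 397 simulated loci drawn with counting error only, the error it assumes. There it called 92% of 50 loci made 2-fold higher in replicate 2, 86% of 50 made 2-fold lower and 4.06% of 197 unchanged loci. Of loci made 4-fold higher and lower it called 100% and 88%. These rates cannot show how often it calls loci where libraries vary by more than counting error. Alternatives were plain totals, DESeq2 1.42.0 size factors, all reads as the total, both strands, other minimums, edgeR's exactTest with a dispersion of 0.01, and each replicate left out.

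A copy was an exact stretch of 20 nt in another miRNA hairpin. Named were the 7 loci, the 3 nearest of each leading locus, and the highest and lowest of each list; other loci named were chosen after their values were seen. The members and lists were chosen with earlier results of these data known.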

Additional observations from a re-analysis of the deposited data

Results flagged for a closer look

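Reads on the strand opposite to Mir203 were outside the main measurement and stood above the limit that a count of 0 allows, 3 reads. There were 69 in replicate 1 and 38 in replicate 2, which is 1.28% (exact Clopper-Pearson 95% interval 1.00 to 1.62) and 1.29% (0.912 to 1.76) of the reads at the locus. Of the 397 detected loci 8 had a larger opposite-strand share over both libraries, and the median share was 0%. Pooled over all loci, the opposite-strand share was larger than at Mir203, at 2.02% of reads in replicate 1 and 2.07% in replicate 2. RefSeq places the miRNA gene Gm51289, with the synonym Mir203b, on that strand, and its mature forms are printed with the seed in capitals.
miR-203b-5p: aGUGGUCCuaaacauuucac
miR-203b-3p: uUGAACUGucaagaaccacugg
The 20 nt of miR-203b-5p are the reverse complement of part of miR-203-3p. Whether these reads came from Gm51289 was not tested. At Mir141 there were 2 opposite-strand reads in replicate 1 and 0 in replicate 2, and at the other 5 loci there were 0 in each.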

How the results depend on the processing

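Under TMM totals, DESeq2 size factors or both strands, 20 of 21 mean member levels stayed within 1 SD, and the largest change was 3.13%. TMM and DESeq2 scaling shift the 2 libraries in opposite directions, so that a mean over both can move little. These means therefore cannot show how far scaling matters within a library. With all reads as the total, the share of the 7 loci was 0.0328%. The ratio of the clusters was 1.41 as a mean over loci. A minimum of 100 reads left 2 detected loci, Mir203 and Mir429. The count of loci that differed between the libraries was 0 of 7 without a filter (746 loci tested) and 0 of 7 in edgeR's exactTest, where 0 also had an unadjusted p under 0.05, against 1 in the exact binomial test. With plain totals the median log2 ratio between the libraries was 0.09, and Mir203 turned from -0.08 to 0.0158; the cause was not tested. Leaving out a replicate moved the cluster ratio between 1.71 and 2.53, the share between 0.0787% and 0.0805%, Mir200c over Mir141 between 3.14 and 8.42, and the seed group ratio between 7.20 and 11.8. No paired analysis was possible because there is only 1 group. Depth limits Mir200a and Mir141, with 11 to 14 reads a library.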
